A study of Arabidopsis thaliana with 4 samples.

Results

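Plates TA20 to TA28 form a stretch of 804 array tiles whose H3K9me3 scores were mostly below the median of the array, broken by short islands of high-scoring tiles. The tiles belong to a 2-colour array on which chromatin of Arabidopsis thaliana seedlings, immunoprecipitated with an antibody against trimethylated lysine 9 of histone H3, was set against input chromatin. A tile is 1 array feature, named by set, plate and well, so that TA20A03 is set TA, plate 20, row A, column 03. The members are all tiles of set TA on plates 20 to 28 with a score on every array, 804 of the 21716 scored tiles (3.7%). The stretch was selected by low plate medians of these same scores in both chromatin preparations. Its low level is therefore given as a description, and no test is attached to it.

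The labels describe seedlings of ecotype Col-0, 10 days old, with no treatment, grown at 22 °C in liquid culture under a daily light period of 16 h. Chromatin preparations I and II were each hybridised on 2 arrays with the dyes swapped, which gives 4 arrays in 1 group and no other strain or condition. Both arrays of a swap hold the same score for every feature, so each preparation counts once (n = 2 preparations). Separate cultures for I and II are not stated in the labels. Whole seedlings were used, so a score averages over all cell types, and cells that carry the mark at a site cannot be told apart from the amount of it per cell.

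Histone H3 is part of the nucleosome, the protein spool around which DNA is wound, and enzymes add up to 3 methyl groups to its lysine 9. In animals the trimethylated form is known from condensed, silent chromatin. In Arabidopsis, silent transposon-rich chromatin carries mainly the dimethylated form, and the trimethylated form has been described over genes in open chromatin. In a chromatin immunoprecipitation on an array, the DNA bound by the antibody and the input DNA compete on each tile, and their relation measures how much of the mark lies there.

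The deposited score is signed, and its scale and log base are not stated, so differences are given in score units and never as a fold. Each preparation was centred on its median over all 21716 scored tiles, which was -1.09 in I and -1.35 in II as deposited. The labels do not state whether a positive score means more immunoprecipitated DNA or less. "High" and "low" describe the score alone and would trade places if the score were input over immunoprecipitate. A search of the TAIR10.1 gene table found none of the 804 identifiers, so the tiles have no gene name, genome position or sequence here. Of the 864 wells on these plates, 60 have no row in the table used here, and 36 of them are on plate TA22, where a stretch of 32 wells runs from TA22F02 to TA22H09.

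The typical tile of the stretch scored below the array median in both preparations. The median tile scored -0.31 in I, -0.39 in II and -0.36 ± 0.052 for the mean of both (SD of the 2 medians). Scores ran from -1.06 to 2.69 in I and from -1.39 to 2.02 in II. A score below 0 in both preparations was found at 598 tiles (74.4%), a score above 0 in both at 126, and opposite signs at 80 tiles (9.95%). Of all scored tiles 42.8% were below 0 in both preparations. In the mean of both preparations 161 tiles (20.02%) lay above 0, against 50.97% of all tiles elsewhere.

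All 9 plates had low medians, which the selection required. In preparation I the plate medians were -0.21 on TA20, -0.34 on TA21, -0.26 on TA22, -0.37 on TA23 and -0.33 on TA24, and then -0.40 on TA25, -0.28 on TA26, -0.27 on TA27 and -0.31 on TA28. In preparation II they were -0.24 on TA20, -0.40 on TA21, -0.46 on TA22, -0.50 on TA23 and -0.39 on TA24, and then -0.48 on TA25, -0.31 on TA26, -0.30 on TA27 and -0.42 on TA28. Preparation II was the lower on every plate, and TA20, at the start, was the least low in both. Differences between plates made up 4.88% of the variance among the 804 tiles, so most of the variation lay between tiles of the same plate. Leaving out any 1 plate moved the median of the stretch no further than -0.35 to -0.37. Since each plate was selected for a low median, nothing is read from this narrow range.

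**Figure D1:**
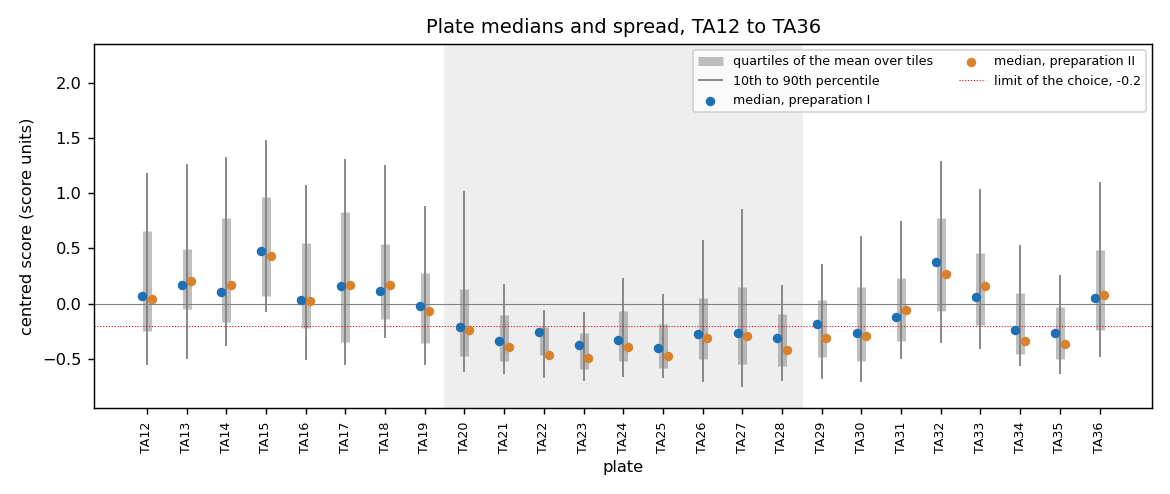
Plate medians of the centred score in preparations I and II (points, score units), with quartiles (thick bars) and 10th to 90th percentiles (thin lines) of the mean score over tiles, for plates TA12 to TA36; plates TA20 to TA28 are shaded and the dotted line marks -0.2. All 9 shaded plates lie under the line in both preparations, TA20 only just (-0.21 and -0.24), while TA29 lies above it in preparation I (-0.18) and under it in II (-0.31).

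The limit behind the choice of plates was a median more than 0.2 below the array median in both preparations. Plate TA20 was just inside it, at -0.21 in I and -0.24 in II. Plate TA19, before the stretch, was outside it at -0.02 and -0.07. Plate TA29, after it, missed the limit by its value in I, -0.18, against -0.31 in II. Plate TA30 was again inside, with -0.27 and -0.29, and so were TA34 and TA35, so the plates that follow are not uniformly higher. With TA29 and TA30 added, the median was -0.35.

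Scores varied least on plates TA22 and TA23. Their 154 tiles had a median of -0.33 in I and -0.48 in II, and 14 of them (9.09%) lay above 0. No tile there reached 1: the highest, TA22A09, scored 0.71 in I and 0.58 in II, and the lowest, TA23E03, scored -0.94 in I and -0.87 in II. The SD over tiles of the mean score was 0.27 on these plates, against 0.61 on TA20 and TA21 and 0.54 on TA24 to TA27. Plate TA28 came next, with 0.34 and no tile at 1 or more. Plate TA22 is the one with 36 wells without a row.

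The high end of the stretch consisted of 33 tiles with a mean score of 1 or more. This is 4.1% of the 804 tiles, where 11.9% of all scored tiles reached 1. The plates were selected for low medians, so the smaller share is a description and nothing is read from it. In preparation I alone 36 tiles reached 1 and in preparation II 28, and 27 did so in both, which is 75% of the first list and 96.4% of the second. Over all scored tiles 2950 reached 1 in I, 2192 in II and 2059 in both, so most of either list was shared there too. Just inside the limit were TA20G07 at 1.02 and TA27G06 at 1.04, and just outside it were TA26E01 at 0.99 and TA24F02 at 0.95.

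These 33 tiles were unevenly placed. Plates TA20 and TA21 held 15 of them (45.5%) on 22.5% of the tiles, plates TA24 to TA27 held the other 18, and TA22, TA23 and TA28 held none. They formed 16 runs of consecutive scored tiles with a mean length of 2.06 tiles: 7 single tiles, 4 runs of 2, 2 runs of 3 and 3 runs of 4. Short runs were not particular to the stretch. Mean lengths were 2.21 on TA01 to TA19, 1.97 on TA29 to TA36, 2 on TA37 to TA51 and 1 on TC17 to TC25. Joining runs of the stretch no more than 12 scored tiles apart, a distance picked after the values were seen, left 10 islands. The largest reached from TA20G03 to TA21A03 and held 10 high tiles among 25, and the next from TA27E08 to TA27G06 held 8 among 22. Those 2 islands together held more high tiles than the other 8. The 741 tiles outside the islands had a median of -0.38.

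**Figure D2:**
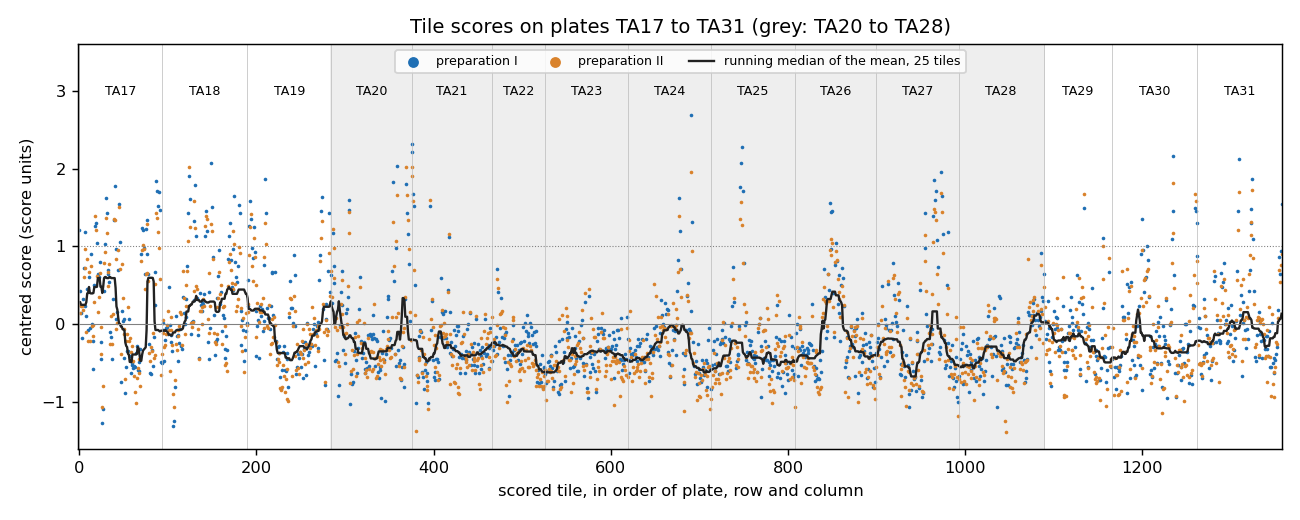
Centred scores of single tiles in preparations I and II (points, score units) in order of plate, row and column on plates TA17 to TA31, with the running median of the mean over 25 tiles (line); plates TA20 to TA28 are shaded and the dotted line marks 1. The line stays under 0 at 92.4% of the shaded tiles, falls lowest, to -0.67, at TA27D05 and rises highest, to 0.42, at TA26D08.

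The first of the 3 longest runs crossed from plate TA20 into TA21. TA20H12 scored 2.32 in preparation I and 2.02 in II, and TA21A01 scored 2.22 and 1.90. TA21A02 followed with 1.67 and 1.58, and TA21A03 with 1.52 and 0.70. The scores fell from tile to tile in both preparations, and only TA21A03 was under 1 in one of them. The tile before the run, TA20H11, had a mean score of -0.20, so the rise to TA20H12 was 2.37, the steepest rise between adjacent wells in the stretch. Beyond the run the mean dropped to 0.31 at TA21A04 and to -1.19 at TA21A05, the lowest tile of all 804, with -1.01 in I and -1.38 in II. A run of 3, TA20H06 to TA20H08, lay just ahead of it and averaged 1.46 in I and 1.68 in II.

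The second, on plate TA25, was the run on which the preparations differed most. TA25C10 scored 1.77 in I and 1.35 in II, TA25C11 2.08 and 1.57, TA25C12 2.28 and 1.27, and TA25D01 1.72 and 0.78. Preparation I was higher at each of the 4 tiles. The difference of 1.004 at TA25C12 was the largest by which I exceeded II anywhere in the stretch. The run had no other high tile near it: 53 scored tiles before it and 97 after it stayed under 1, with medians of -0.54 and -0.44.

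The last of the longest runs lay on plate TA27. TA27F06 scored 1.39 in I and 1.05 in II, TA27F07 1.86 and 1.48, TA27F08 1.59 and 1.45, and TA27F09 1.72 and 1.34. All 4 tiles were above 1 in both preparations. A run of 3 followed after 5 scored tiles, TA27G04 to TA27G06, with averages of 1.59 in I and 1.34 in II.

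**Figure D3:**
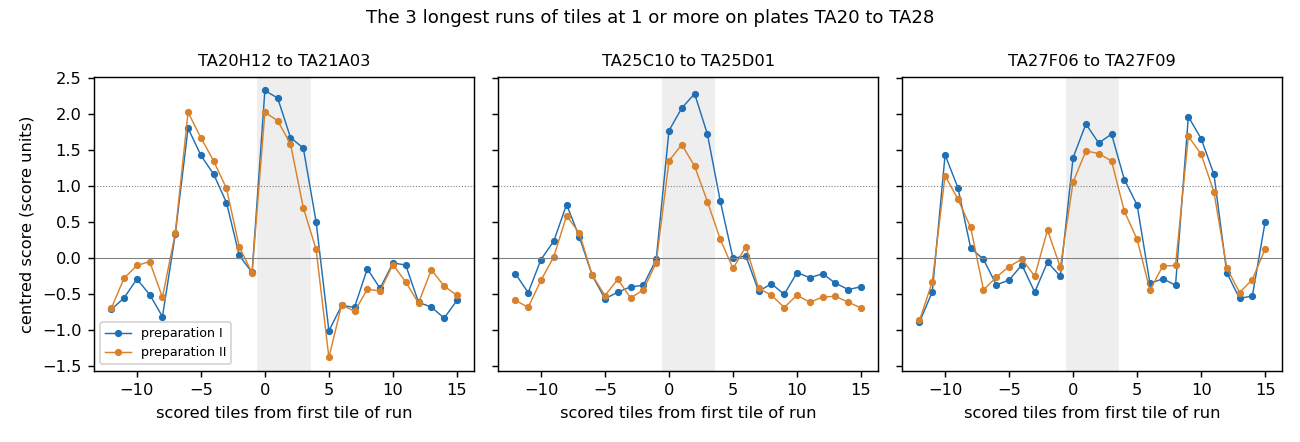
Centred scores in preparations I and II (points joined by lines, score units) for the 3 runs of 4 consecutive tiles at 1 or more, with 12 scored tiles on either side; the run is shaded, 0 on the horizontal axis is its first tile and the dotted line marks 1. Each run stands above the tiles directly before and after it in both preparations. Other high tiles lie in the plotted windows, such as TA20H06 (1.80 in I, 2.02 in II) and TA27G04 (1.96 and 1.68). TA27G04 is above every tile of the shaded run on TA27. The score reaches -1.01 in I and -1.38 in II at TA21A05, just after the run that begins with TA20H12.

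The highest single tile was TA24G03, with 2.69 in preparation I and 1.95 in II. It stood at a sharp edge: TA24G02 before it had a mean score of 0.03, TA24G04 after it 1.13 and TA24G05 -0.36. The steepest fall between adjacent wells was at TA20B12, where the mean went from 1.52 at TA20B11 to -0.89, a change of -2.41. In the stretch 26 of the 774 adjacent pairs (3.36%) differed by 1 or more. The share over the whole array was not computed, so nothing is read from this count.

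Between these islands lay long stretches without a high tile. The longest ran over 259 scored tiles from TA21D09 to TA24E12, with a median of -0.33 in I and -0.45 in II, and 30 of its tiles (11.6%) were above 0. It was also 259 tiles long in each preparation taken alone. The wells with no row on TA22 lie within it, and when a stretch had to end at every such well the longest was 105 tiles. Further stretches of 113 tiles (TA27G07 to TA28H12) and 103 tiles (TA26D09 to TA27E07) held no high tile either. The longest succession of tiles all below 0 was 58 tiles, from TA22C06 to TA23B11, and their median was -0.47. It too spans the 32 wells with no row, and without passing over such wells the longest was 44 tiles, from TA24G05 to TA25B12.

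At the low end 4 tiles had a mean score of -1 or less, or 0.498% of the stretch against 0.327% of all scored tiles. These were TA21A05 at -1.19, TA27H12 at -1.09, TA28E06 at -1.08 and TA21B09 at -1.05. In preparation I they scored -1.01, -0.99, -0.78 and -1.02, and in preparation II -1.38, -1.18, -1.39 and -1.08. Preparation II was the lower at all 4, and TA27H12 and TA28E06 reached -1 in II alone. TA27D02 and TA26G03, at -0.95 and -0.94, stayed just above the limit. TA27H12, TA28E06 and TA21B09 each stood between tiles that were also below 0, while TA21A05 followed a tile at 0.31. With 12 tiles at -1 or less in preparation II alone and 5 in I alone, the count rests on which preparation is used.

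With limma, a linear model fitted over all scored tiles in which the mean score is tested against the array median (Benjamini-Hochberg adjusted p under 0.05, n = 2 preparations), 445 tiles of the stretch were called lower (55.3%), 86 higher (10.7%), and 273 were not called. Over the whole array 25% of tiles were called lower and 31.6% higher. Selection used the same scores, so the calls describe the stretch and support nothing about it. Lower calls were most frequent on TA23, at 68.1% of its tiles, and least on TA20, at 40.7%. All tiles shared 1 estimated spread of 0.1996 score units per preparation, so a call amounts to a mean more than 0.31 from the median. With each preparation centred on its mode 247 tiles were lower and 103 higher, and on the scores as deposited 761 were lower and 9 higher.

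The difference from the plates on either side grew from the low to the high end of the scores. Against plates TA01 to TA19 (1820 tiles) the 10th percentile was lower by 0.24 (difference -0.24), the median by 0.46 (-0.46) and the 90th percentile by 0.88 (-0.88). Against plates TA29 to TA36 (748 tiles) the differences at the same points were -0.12, -0.24 and -0.51. The interquartile range was 0.44 in the stretch, 0.82 before it and 0.72 after it. The median difference from TA01 to TA19 was -0.43 in preparation I and -0.49 in II, and from TA29 to TA36 -0.22 and -0.30. The contrast is smaller close by: against only the 3 nearest plates on either side it was -0.28, and against both flanks in full -0.41.

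**Figure D4:**
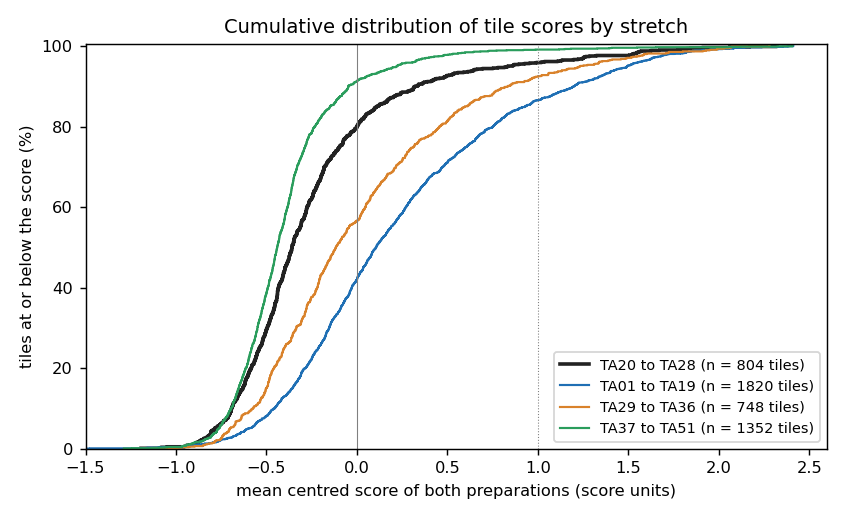
Share of tiles (%) at or below each mean centred score of both preparations (score units) for plates TA20 to TA28 and for TA01 to TA19, TA29 to TA36 and TA37 to TA51. The curves for TA20 to TA28 and TA37 to TA51 start together, with 10th percentiles of -0.69 in both, and separate upwards to 90th percentiles of 0.32 and -0.05; 20.02% of the tiles of TA20 to TA28 lie above 0.

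Other plates of the array were low too. A larger share of tiles lay above 0 on TA20 to TA28 than on TA37 to TA51 or TC17 to TC25. This held with the islands left out too. Of all tiles on TA37 to TA51 8.8% lay above 0 and on TC17 to TC25 9.2%, against 20.02% here and 15.9% of the 741 tiles outside the islands. Plates TA37 to TA51 shared its 10th percentile of -0.69, but their 90th percentile was -0.05 against 0.32. They held 12 tiles at 1 or more among 1352 (0.888%), and plates TC17 to TC25 held 3 among 804 (0.373%), the same number of tiles as here, against 33 here. In TA37 to TA51 the longest stretch without a high tile was 359 tiles and the longest succession below 0 was 102, compared with 105 and 44 here when every well with no row ends a stretch; the longest in TA37 to TA51 cross no such well. Plates TA57 to TA59 (288 tiles, median -0.34) had an upper end like that of TA20 to TA28 or higher, with a 90th percentile of 0.36 and 26.04% of tiles above 0, although 4 of their tiles (1.39%) reached 1. All 4 sets of plates were selected on these scores, so the differences between them were not tested.

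Averages over 6 tiles showed no clear step down at the border between TA19 and TA20, nor up at that between TA28 and TA29. SDs across those tiles were 0.32 to 0.57. The tiles directly at the borders did differ: the mean score fell from 0.66 at TA19H12 to 0.31 at TA20A01. It rose from 0.03 at TA28H12 to 0.56 at TA29A01. At the start the last 6 tiles of TA19 averaged 0.43 and the first 6 scored tiles of TA20 averaged 0.41. TA19H12, the last before the border, scored 0.63 in I and 0.68 in II, and TA20A01, the first after it, 0.27 and 0.35. TA20A03 then reached 1.17 and 1.22 before TA20A06 fell to -0.47 and -0.03. At the far end the last 6 tiles of TA28 averaged 0.20 and the first 6 of TA29 averaged 0.04. TA28H12 scored 0.29 and -0.24, and TA29A01 0.65 and 0.48. TA28H10 had been higher still, at 0.91 and 0.76. On average the 6 tiles on either side of each border thus lay above the array median.

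A running median over 25 tiles placed the low scores in several separate pieces. Such pieces were sought on plates TA17 to TA31 only, so the other low plates of the array were not searched. With a limit of -0.16, midway between the medians of the stretch and of both flanks, 84.2% of the 804 tiles were under it. The longest piece spanned 248 scored tiles from TA21D01 to TA24D03, followed by 149 tiles from TA24F12 to TA26C06, 97 from TA27G04 to TA28G05 and 92 from TA26F05 to TA27F02. The longest of the further pieces inside the stretch were 52 tiles (TA20C01 to TA20G07) and 33 tiles (TA20H09 to TA21C07). Pieces outside the selected plates, on TA17 to TA19 and TA29 to TA31, were shorter than the longest ones inside, but some were longer than these. They included 42 tiles on TA19 (TA19C08 to TA19G02), 57 tiles from TA29E03 to TA30B11 and 72 tiles from TA30D08 to TA31B07. In preparation II alone the longest piece was 185 tiles, from TA22A08, and in preparation I alone 279 tiles, from TA21A06.

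Neighbouring tiles resembled each other inside the stretch. Across its 774 pairs of adjacent wells the mean scores correlated with r = 0.65 (0.63 in I, 0.65 in II), and at distances of 2, 3, 6 and 12 wells with 0.39, 0.24, 0.20 and 0.07. In TA01 to TA19 the value for adjacent wells was 0.66, in TA29 to TA36 0.67, in TA37 to TA51 0.53 and in TC17 to TC25 0.39. Taking wells down the columns of a plate gave 0.094. Across the 8 plate junctions inside the stretch the last and first scored tiles differed by 0.0035 to 0.41, with a median of 0.11, while adjacent wells within plates differed by a median of 0.20 over 767 pairs. TA20H12 and TA21A01, both above 2 in the mean, and TA24H12 and TA25A01, at -0.83 and -0.89, are junctions where a high or low score carried over to the next plate. These correlations are across tiles of the same arrays, which are not independent replicates.

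Most high tiles were high in both preparations, and I exceeded II on average more at the high tiles than at tiles below 0. Over the 804 tiles the preparations correlated with Pearson's r = 0.87 and Spearman's rho = 0.72, compared with 0.90 and 0.87 in TA01 to TA19. In other low sets the values were 0.81 and 0.67 (TA37 to TA51), 0.77 and 0.71 (TC17 to TC25) and 0.89 and 0.86 (TA57 to TA59). On TA22 and TA23, where the spread between tiles was small, r was 0.68. At the 33 high tiles preparation I averaged 1.65 and preparation II 1.35, a difference of 0.30 ± 0.31 (SD across tiles), with I the higher at 26 of them. At the 643 tiles with a mean below 0 the averages were -0.40 and -0.46, and the difference was 0.06 ± 0.26 (SD across tiles). That is near the mean difference left by the centring, 0.07 over the 804 tiles and 0.07 over all scored tiles. The 2552 high tiles elsewhere on the array differed likewise, by 0.27 ± 0.27 (SD across tiles). A difference of more than 0.5 was found at 44 tiles (5.47%), with I higher at 32 of them, against 7.2% of all tiles. TA28G07, with 0.15 in I and 0.84 in II, was the tile at which II exceeded I the most.

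**Figure D5:**
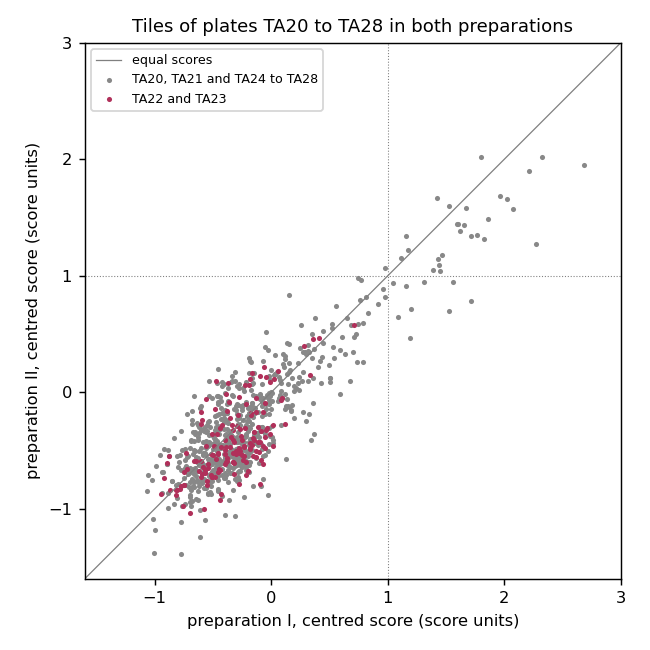
Centred score of each of the 804 tiles in preparation I (horizontal, score units) and preparation II (vertical, score units), with tiles of TA22 and TA23 in colour, dotted lines at 1 and a solid line of equal scores. The tiles of TA22 and TA23 stay under 1 on both axes, and above 1 most points lie under the line of equal scores, with preparation I higher at 26 of the 33 tiles at 1 or more.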

How the data were processed

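The deposited table holds 1 signed score per feature and array. The background correction, normalization and pooling of arrays by the authors are not given in the sources used here. Array values gave no spot brightness here, so weak spots were not filtered, and the number of preparations limits the precision. The 2 identical arrays of each dye swap were averaged to 1 score per preparation. Each preparation was centred on its median over 21716 tiles. limma (version 3.58.1, R 4.3.3; lmFit and eBayes, two-sided) was fitted over all of them and tested on simulated data. Its p-values rest only on the spread between the 2 preparations, as 1 value shared by all tiles. They do not measure how well the preparations agreed at a single tile. Percentiles, runs, running medians and correlations were computed with Python 3.11.15, numpy 2.4.6, pandas 2.3.3 and scipy 1.17.1, and runs pass over wells with no row. The plates, limits and tests were chosen with earlier results of these data known. Named tiles are the 3 highest and 3 lowest, those of the longest runs, 6 on either side of each border and the largest differences between preparations. Further tiles in the text were picked with their scores in view. Alternatives changed the centring, scaling, limits, flanks, windows, well order, plates and preparations.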

Additional observations from a re-analysis of the deposited data

How the results depend on the processing

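The median of the stretch and its difference from other plates stayed negative under every setting, but the plates were selected to be low. The correlations stayed positive. Counts, run lengths and spreads cannot change sign. Single border tiles near 0 changed sign without preparation I. TA19H09 went from a mean of 0.30 to -0.09, TA20A07 from -0.19 to 0.08, TA28H08 from 0.02 to -0.05 and TA28H12 from 0.03 to -0.24. The values for the stretch given here moved by more than the SD between preparations or, for counts, by over 1.5 times. For the agreement of the preparations, which has no such SD, each is given. With the mode as zero the median of the stretch was -0.21, 1 tile was at -1 or less, and 247 were called lower by limma. On deposited scores limma called 9 higher and 761 lower, and with a minimum difference of 0.5 (treat) 40 higher and 21 lower. A limit of 0.5 gave 59 high and 237 low tiles. The difference from the 3 nearest plates on either side was -0.28. Agreement of the preparations was 0.71 without the highest and lowest 5% of tiles and 0.72 as Spearman's rho. Adjacent wells correlated with 0.094 in column order and 0.64 with plate medians subtracted. The longest low piece was 468 tiles with a limit at 0, and the longest stretch under 1 was 105 tiles when broken at wells with no row. The 10th to 90th percentile range was 1.01, by construction wider than the interquartile range.

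With 1 preparation left out, the median was -0.39 to -0.31, the difference from both flanks -0.44 to -0.36, high tiles numbered 28 to 36 and low tiles 5 to 12 (12 without preparation I). The correlation of adjacent wells was 0.63 to 0.65, the longest high run 4 to 5 tiles, the longest low piece 185 to 279 tiles and the interquartile range 0.44 to 0.55. Agreement of the preparations and the limma counts have no value with 1 preparation. No paired analysis was possible because there is 1 group. The setting with TA29 and TA30, the stretches under 1 and below 0, the broken runs and Spearman's rho were added after seeing the data. The cause of these changes was not tested.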
